A study of Saccharomyces cerevisiae with 10 samples.

Results

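The genes described here encode the glycine cleavage complex and the folate-dependent enzymes that carry its one-carbon units in budding yeast. The members are GCV1, GCV2, GCV3, LPD1, SHM1, SHM2, MTD1, MIS1, ADE16 and ADE17. They were chosen by name, and are 10 of the 5989 coding sequences in the deposited table. All 10 were measured in every library and all passed the filter on low counts. The rise of GCV1, GCV2 and GCV3 at 1.5 h against 0 h was already known when the genes were grouped. That comparison is therefore described with no p-value for any member. For those 3 genes no p-value is given in any comparison that uses a 0 h or 1.5 h library.

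The cells were wild-type BY4741, a MATa laboratory strain of Saccharomyces cerevisiae in which HIS3, LEU2, MET17 and URA3 are deleted wholly or in part. All groups shared this genotype, growth in synthetic complete medium at 30 °C and harvest from exponential growth. KCl was brought to 1.5 M in a shaking culture, and RNA was taken before the salt (0 h, the controls) and after 0.5, 1, 1.5 and 2 h. Each of the 5 times has 2 libraries, 1 from each of the separately run time series a and b, and polyadenylated RNA was sequenced from random-primed cDNA. There was no culture without salt at the later times, so time in culture and time in KCl cannot be told apart. Levels are shares of the sequenced RNA, and a lower share in each cell and fewer cells carrying the transcript cannot be told apart.

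Glycine cleavage takes place in the mitochondrial matrix. The complex splits glycine into carbon dioxide, ammonia and a one-carbon unit held on tetrahydrofolate, with Gcv2 (P protein) releasing the carbon dioxide, Gcv3 (H protein) carrying the rest on a lipoyl arm, Gcv1 (T protein) passing the one-carbon unit to folate and Lpd1 (L protein) reoxidizing the lipoyl arm. Serine hydroxymethyltransferases interconvert serine and glycine, Shm1 in mitochondria and Shm2 in the cytosol. Mis1 in mitochondria and Ade3 in the cytosol interconvert the folate one-carbon forms, as cytosolic Mtd1 does for 1 of those steps. Ade16 and Ade17 use formyl-folate for the closing steps of IMP synthesis. In yeast, transcription of many of these genes is known to respond to glycine, to adenine and to amino acid supply, through Bas1 with its partner Pho2 (also called Bas2) and through Gcn4.

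The DNA upstream of 9 of the members was read from the RefSeq R64 genome, the build named for the deposited table. A window from 350 to 101 bases before the start codon was used for every coding sequence. It was searched on both strands for 3 sets of letters. TGACTC is the site of Bas1 and the core of the Gcn4 site. CTTCTT is only a part of the stretch described in the glycine response of the GCV genes, and it was searched alone. Since it was described at those genes, nothing is read from finding it there. CCCCT is the stress response element of Msn2 and Msn4. TGACTC was found in 6 of these 9 windows (GCV1, GCV2, GCV3, LPD1, MTD1 and ADE17), and in 424 of 5970 windows (7.10%) over all coding sequences. CTTCTT was found in 5 of the 9, the same genes without LPD1, against 29.0% of all windows. CCCCT was found upstream of 1 member, SHM1, against 20.1% of all windows. The windows of MIS1 and ADE16 held none of the 3. In the window from 250 bases before the start codon to the codon itself, TGACTC was found upstream of the same 6 members, against 6.25% of all windows. CTTCTT was found there upstream of 3 members (GCV1, MTD1 and ADE17), against 31.2% of all windows, a share near the background. A match is a run of letters and says nothing of whether a factor was bound.

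The windows of the 6 members with TGACTC are shown. They belong to GCV1, GCV2, GCV3, MTD1 and ADE17, with large late rises, and to LPD1, which changed little. The rise of GCV1, GCV2 and GCV3 was known when the genes were grouped. Nothing is therefore read from letters and rises occurring in the same members, and a link was not tested. ADE16, with a small late rise, is not among the 6. Each is written 5′ to 3′ along the gene's strand, with both TGACTC and CTTCTT (or their reverse complements GAGTCA and AAGAAG) in capitals.
GCV1 (chrIV:485466-485715, reverse strand): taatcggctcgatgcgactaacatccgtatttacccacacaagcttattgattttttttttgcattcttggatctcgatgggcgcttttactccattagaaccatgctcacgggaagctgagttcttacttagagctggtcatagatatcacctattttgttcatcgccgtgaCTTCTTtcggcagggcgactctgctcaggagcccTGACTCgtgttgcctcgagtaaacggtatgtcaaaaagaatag
GCV2 (chrXIII:637150-637399, forward strand): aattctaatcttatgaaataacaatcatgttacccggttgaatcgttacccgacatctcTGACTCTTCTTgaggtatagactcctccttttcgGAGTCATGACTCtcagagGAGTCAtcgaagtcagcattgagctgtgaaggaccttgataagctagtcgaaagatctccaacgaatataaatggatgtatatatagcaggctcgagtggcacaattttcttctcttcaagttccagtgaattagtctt
GCV3 (chrI:58563-58812, reverse strand): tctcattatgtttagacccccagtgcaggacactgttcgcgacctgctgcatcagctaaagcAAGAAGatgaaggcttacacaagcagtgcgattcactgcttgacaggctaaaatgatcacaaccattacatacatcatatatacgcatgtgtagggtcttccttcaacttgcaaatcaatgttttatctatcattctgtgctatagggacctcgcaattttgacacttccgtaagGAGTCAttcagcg
MTD1 (chrXI:590045-590294, forward strand): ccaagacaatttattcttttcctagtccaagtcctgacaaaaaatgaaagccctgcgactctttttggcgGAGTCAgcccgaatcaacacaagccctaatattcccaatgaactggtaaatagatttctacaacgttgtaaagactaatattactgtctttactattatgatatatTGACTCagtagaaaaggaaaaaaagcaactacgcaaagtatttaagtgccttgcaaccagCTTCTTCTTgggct
ADE17 (chrXIII:509381-509630, reverse strand): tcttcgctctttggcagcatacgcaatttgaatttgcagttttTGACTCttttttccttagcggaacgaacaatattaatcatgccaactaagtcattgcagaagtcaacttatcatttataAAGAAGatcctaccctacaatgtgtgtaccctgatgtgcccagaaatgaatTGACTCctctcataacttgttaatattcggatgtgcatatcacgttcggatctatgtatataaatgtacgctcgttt
LPD1 (chrVI:103228-103477, reverse strand): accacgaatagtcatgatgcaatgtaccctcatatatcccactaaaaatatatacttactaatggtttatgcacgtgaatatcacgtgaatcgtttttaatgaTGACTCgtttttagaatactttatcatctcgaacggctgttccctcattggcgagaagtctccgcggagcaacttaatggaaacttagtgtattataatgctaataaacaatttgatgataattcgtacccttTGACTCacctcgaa
In GCV2 the letters of a TGACTC at 291 to 286 bases before the start codon and a CTTCTT at 286 to 281 share a C. GCV2 held 4 copies of TGACTC, and at 257 to 252 and 251 to 246 bases a reverse and a forward copy lay end to end. The other windows shown held 1 or 2 copies. In MTD1 a pair of CTTCTT matches overlapped, at 114 to 109 and 111 to 106 bases.

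**Figure D1:**
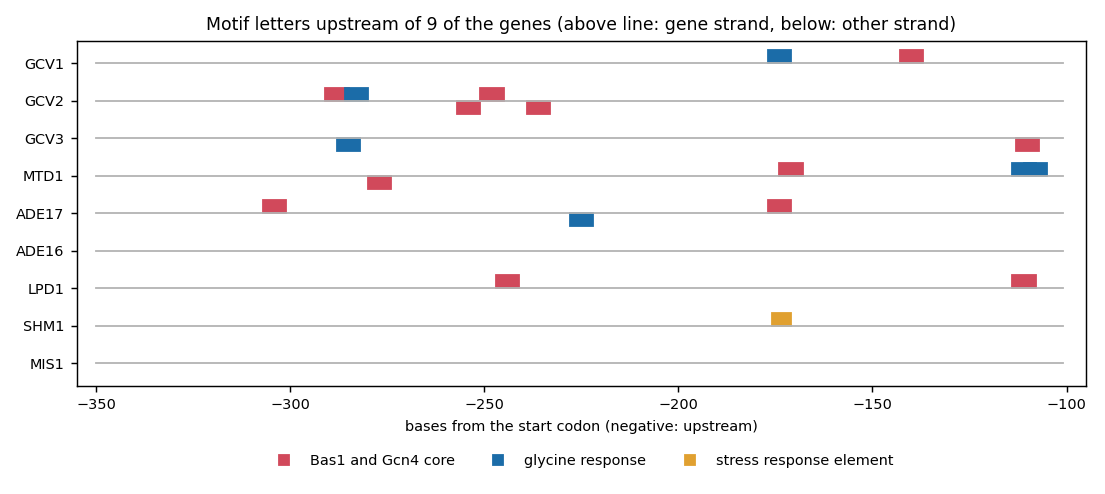
Matches to 3 sets of letters upstream of 9 of the genes, against distance from the start codon in bases, with boxes above a line on the gene's strand and boxes below it on the other strand. Red boxes (TGACTC) appear on 6 lines and blue boxes (CTTCTT) on 5, and the lines of ADE16 and MIS1 are empty.

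Sequencing depth was 3372373 to 8325291 reads on coding sequences per library, and the members drew 76 to 3750 reads in a library. Levels are given as CPM (reads of a gene per unit of library size, where edgeR's TMM factors adjust the size), with series a first and series b second, and SD over n = 2. The edgeR quasi-likelihood test was run over 5943 coding sequences, its p-values were adjusted by Benjamini-Hochberg, and a gene was called at an adjusted p under 0.05. The comparisons with 0 h share the same control libraries. LEU2 and MET17 had 0 reads in all libraries, and HIS3 at most 1.60 CPM. URA3 was at 0 to 1.16 CPM except in the 0.5 h library of series a, where it had 162 reads (37.6 CPM). This library is used with that mark, and each result resting on it is given without it where the call changes. The 4 MATa genes summed to 1880 to 2195 CPM in the libraries of 0 and 0.5 h, to 1286 and 1254 CPM at 1 h, and to 537 to 580.2 CPM at 1.5 and 2 h. The 4 MATalpha genes summed to 78.7 to 112 CPM up to 1 h and then to 138 to 145 CPM. At 1 h against 0.5 h all 4 MATa genes were called lower (median log2 fold change -0.78), beside 32.1% of all coding sequences. At 2 h against 0 h all 4 MATa genes were called lower (median log2 fold change -2.10) and 2 of the 4 MATalpha genes higher. The shares over all coding sequences were 37.0% lower and 37.8% higher. The MATa sum thus began to fall before the step from 1 h to 1.5 h, where most members shifted, and fell further at it. The MATalpha sum rose at that step. The part of these sums in the results was not tested.

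The 3 subunits that, unlike Lpd1, are not shared with other dehydrogenase complexes, GCV1, GCV2 and GCV3, stood low through 0.5 h and were several times higher from 1.5 h on. GCV1 (YDR019C, chrIV:484163-485365) had 22.3 and 17.4 CPM at 0 h, 17.9 and 16.8 at 0.5 h, 23.0 and 22.6 at 1 h, 104 and 96.7 at 1.5 h, then 145 and 137 at 2 h. Its libraries of 0, 0.5 and 1 h all lay under 24 CPM and those of 1.5 and 2 h all over 96, with only the 0 h and 0.5 h libraries overlapping. From 1 h to 2 h the level of GCV1 rose by 2.62 ± 0.09 on the log2 scale (SE, 6.16-fold, adjusted p = 5.81e-15), the 5th largest rise of the 5943 coding sequences tested. From 0.5 h to 1 h it rose by 0.40 ± 0.14 (adjusted p = 0.0145), a call that was lost without the 0.5 h or the 1 h library of series b (adjusted p = 0.122 and 0.0747) and in DESeq2 (0.0908).

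GCV2 (YMR189W, chrXIII:637500-640604) was already up at 1 h. It had 18.6 and 22.4 CPM at 0 h, 23.2 and 22.2 at 0.5 h, 62.2 and 61.6 at 1 h, 129 and 136 at 1.5 h, then 162 and 157 at 2 h. The 1 h libraries lay clear of all earlier and all later ones. Between 0.5 h and 1 h GCV2 rose by 1.45 ± 0.10 on the log2 scale (2.73-fold, adjusted p = 1.80e-10), and between 1 h and 2 h by 1.36 ± 0.07 (2.58-fold, adjusted p = 1.09e-12). GCV2 stood at 1 h against 0 h at a log2 fold change of 1.59, where GCV1 was at 0.20 and GCV3 at 0.41. Whether the early change of GCV2 differed from that of GCV1 and GCV3 was not tested.

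GCV3 (YAL044C, chrI:57950-58462) had 23.9 and 19.9 CPM at 0 h, 18.6 and 24.3 at 0.5 h, 28.3 and 29.6 at 1 h, 88.1 and 82.2 at 1.5 h, then 90.2 and 106 at 2 h. The 2 h libraries of GCV3 spread more than those of the other subunits (SD of 11.0 CPM around a mean of 98.0), but both lay above every earlier library. From 1 h to 2 h its level rose by 1.78 ± 0.11 on the log2 scale (3.42-fold, adjusted p = 1.40e-11). From 0.5 h to 1 h it rose by 0.40 ± 0.14 (adjusted p = 0.0191), and this call was lost without the 0.5 h library of series a that held URA3 reads (log2 fold change 0.26, adjusted p = 0.144), without the 1 h library of series b (adjusted p = 0.146) and in DESeq2 (0.0761).

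Against 0 h, the values that chose these 3 genes were somewhat under those of the next time. GCV1 was at a log2 fold change of 2.33 at 1.5 h and 2.82 at 2 h, GCV2 at 2.69 and then 2.96, and GCV3 at 1.95 and then 2.19. Per kilobase of coding length, GCV2 stood at 6.60 ± 0.87 CPM per kb at 0 h, above only 4.24% of the coding sequences tested, and at 51.5 ± 1.18 at 2 h, above 46.7%. GCV1 went from 16.5 ± 2.90 to 117 ± 4.54 CPM per kb (above 11.7%, then 77.2%), and GCV3 from 42.7 ± 5.58 to 191 ± 21.4 (above 39.2%, then 86.8%). The order GCV3, GCV1, GCV2 in level per kb held at 0 h and at 2 h, with no overlap of mean ± SD.

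LPD1 encodes the dihydrolipoamide dehydrogenase that glycine cleavage shares with pyruvate dehydrogenase and 2-oxoglutarate dehydrogenase. LPD1 (YFL018C, chrVI:101628-103127) had 299 and 276 CPM at 0 h, 324 and 316 at 0.5 h, 367 and 379 at 1 h, 334 and 337 at 1.5 h, then 311 and 319.95 at 2 h. All its libraries lay between 276 and 379 CPM, with the 1 h pair highest and the 0 h pair lowest. From 0 h to 1 h its level rose by 0.38 ± 0.06 on the log2 scale (1.30-fold, adjusted p = 1.34e-05), and from 1 h to 2 h it fell by 0.24 ± 0.06 (1.18-fold, adjusted p = 0.000696). With scaling by library size alone, which moved the median of all genes by 0.29 in that last comparison, the sign of LPD1 turned (0.05, adjusted p = 0.442). At 2 h against 0 h LPD1 was higher by 0.13 ± 0.06 (adjusted p = 0.0386), a call lost by leaving out any of 4 libraries and in DESeq2 (adjusted p = 0.158).

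**Figure D2:**
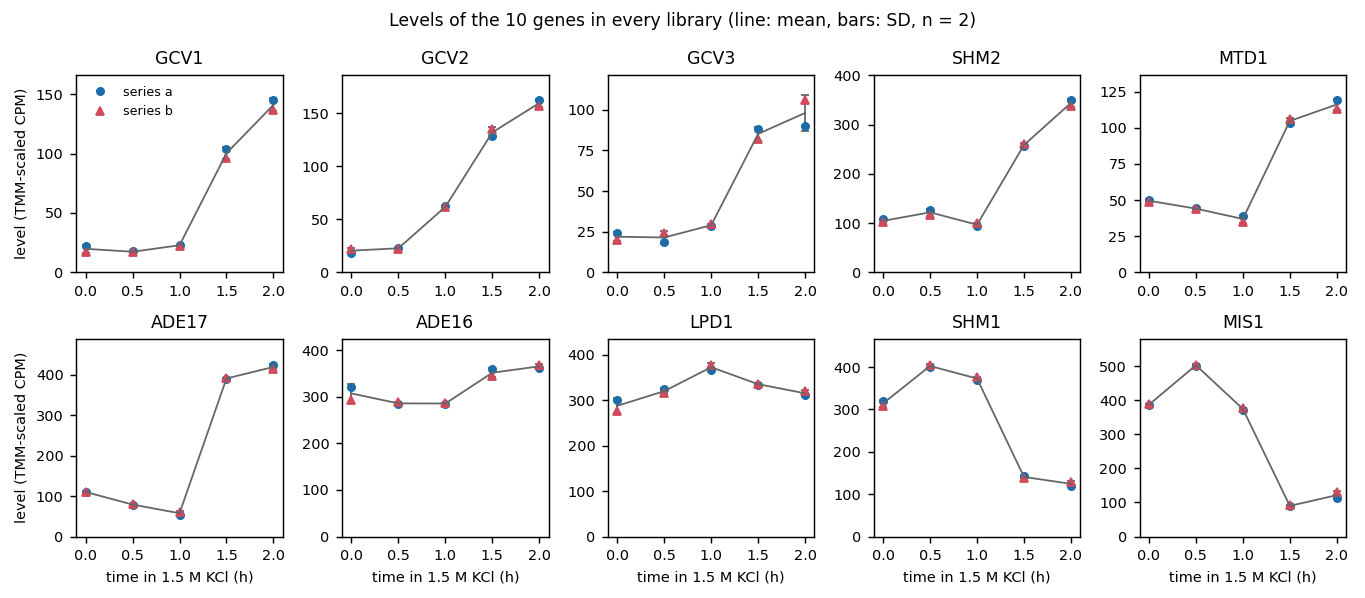
Level of each of the 10 genes in every library (TMM-scaled CPM) against hours in 1.5 M KCl, with circles for series a, triangles for series b, the line through the means and bars of SD (n = 2). GCV1, GCV3, SHM2, MTD1 and ADE17 step up between 1 h and 1.5 h, SHM1 and MIS1 step down there, and GCV2 is already at 62.2 and 61.6 CPM at 1 h.

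The serine hydroxymethyltransferase pair moved in opposite directions. SHM1 (YBR263W, chrII:736264-737736), the mitochondrial enzyme, had 319.7 and 309 CPM at 0 h, 399 and 406 at 0.5 h, 369.9 and 376 at 1 h, 143 and 138 at 1.5 h, then 120.3 and 128 at 2 h. The libraries of the first 3 times all lay over 300 CPM and those of the last 2 times under 150. SHM1 first rose at 0.5 h against 0 h by 0.36 ± 0.05 on the log2 scale (1.28-fold, adjusted p = 1.15e-05) and then fell from 1 h to 2 h by 1.58 ± 0.06 (2.98-fold, adjusted p = 7.96e-15). At 2 h against 0 h its level was lower by 2.51-fold (log2 fold change -1.33 ± 0.06, adjusted p = 5.22e-14). The further fall from 1.5 h to 2 h (-0.16 ± 0.06, adjusted p = 0.0492) was lost in DESeq2 (adjusted p = 0.132) and without any 1 of the 8 libraries taken in KCl.

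SHM2 (YLR058C, chrXII:257992-259401), the cytosolic enzyme, had 107 and 102 CPM at 0 h, 127 and 117 at 0.5 h, 93.6 and 99.8 at 1 h, 256 and 261 at 1.5 h, then 349 and 338 at 2 h. Its early libraries lay between 93 and 128 CPM and its late ones over 256, with the 2 h pair above the 1.5 h pair. From 1 h to 2 h SHM2 rose by 1.82 ± 0.06 on the log2 scale (3.52-fold, adjusted p = 3.04e-15), and from 1.5 h to 2 h alone by 0.41 ± 0.05 (adjusted p = 1.27e-05). It had fallen from 0.5 h to 1 h by 0.31 ± 0.07 (adjusted p = 0.000429). Its small rise at 0.5 h against 0 h (0.21 ± 0.07, adjusted p = 0.0138) was lost without the 0.5 h library of series a (0.16, adjusted p = 0.112).

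The ratio of SHM2 to SHM1 within a library does not depend on how libraries are scaled. Per length it came to 0.351 and 0.344 at 0 h, 0.333 and 0.3001 at 0.5 h, 0.265 and 0.278 at 1 h, 1.87 and 1.97 at 1.5 h, then 3.03 and 2.75 at 2 h. SHM1 transcript was thus the more abundant of the pair in all 6 libraries up to 1 h, and SHM2 in all 4 later ones. The ratio changed over time in an exact permutation test of its F statistic over the 945 groupings of 10 libraries (p = 0.00106, the smallest that design can give, adjusted p = 0.00317 over 3 ratios). From 0 h to 2 h it rose by 3.05 on the log2 scale, 8.31-fold. The coding sequences share 57.3% of their bases, the longest identical run is 21 bases and no word of 50 bases is common to both. SHM1 was the only member with counts that ended in 0.5, for a reason that is not stated.

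MTD1 and MIS1, which act on the one-carbon folates on the 2 sides of the mitochondrial membrane, also moved apart. MTD1 (YKR080W, chrXI:590395-591357), the cytosolic NAD-dependent dehydrogenase, had 50.2 and 48.9 CPM at 0 h, 44.4 and 43.8 at 0.5 h, 38.9 and 34.998 at 1 h, 103 and 106 at 1.5 h, then 119 and 113 at 2 h. Its 1 h libraries were the lowest and its 2 h libraries the highest, with no overlap between any of these times. MTD1 fell from 0 h to 1 h by 0.44 ± 0.10 on the log2 scale (adjusted p = 0.000569) and rose from 1 h to 2 h by 1.66 ± 0.08 (3.17-fold, adjusted p = 3.15e-13). At 2 h it was 2.33-fold above 0 h (log2 fold change 1.22 ± 0.08, adjusted p = 1.72e-11).

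MIS1 (YBR084W, chrII:411054-413981), the mitochondrial C1-tetrahydrofolate synthase, had 386 and 388 CPM at 0 h, 501 and 505 at 0.5 h, 372 and 377 at 1 h, 88.7 and 91.3 at 1.5 h, then 113 and 129.8 at 2 h. The highest pair was at 0.5 h and the lowest at 1.5 h, and no library of the last 2 times came near an earlier one. MIS1 rose at 0.5 h against 0 h by 0.38 ± 0.06 on the log2 scale (adjusted p = 1.30e-05) and fell from 1 h to 1.5 h by 2.05 ± 0.06 (4.16-fold, adjusted p = 6.63e-16). It then regained 0.45 ± 0.07 by 2 h (adjusted p = 8.02e-05). At 2 h it was still 3.15-fold below 0 h (log2 fold change -1.65 ± 0.06, adjusted p = 5.64e-15).

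ADE3, the cytosolic C1-tetrahydrofolate synthase and not one of the 10 genes, had 431 and 389 CPM at 0 h and 311 and 327 at 2 h. Its change at 2 h against 0 h was -0.36 ± 0.06 on the log2 scale (adjusted p = 1.62e-05), and with scaling by library size alone it was no longer called (-0.08, adjusted p = 0.236). The ratio of MIS1 to ADE3 per length came to 0.869 and 0.967 at 0 h, 1.247 and 1.22 at 0.5 h, 0.935 and 0.933 at 1 h, 0.217 and 0.227 at 1.5 h, then 0.352 and 0.386 at 2 h. The mitochondrial transcript was close to the cytosolic one up to 1 h and well under it in all 4 later libraries. This ratio changed over time (exact permutation p = 0.00317, adjusted p = 0.00317 over 3 ratios) and was lower at 2 h than at 0 h by 2.49-fold (log2 difference -1.31).

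ADE16 and ADE17 encode isoenzymes for the same closing steps of IMP synthesis. ADE17 (YMR120C, chrXIII:507502-509280) had 109 and 111 CPM at 0 h, 77.6 and 80.6 at 0.5 h, 54.1 and 61.2 at 1 h, 390.0 and 392 at 1.5 h, then 425 and 413 at 2 h. Its level went down at each of the first 2 steps and then up between 1 h and 1.5 h, with no overlap between neighbouring times. ADE17 fell from 0 h to 1 h by 0.91 ± 0.07 on the log2 scale (1.88-fold, adjusted p = 3.55e-09). From 1 h to 2 h it rose by 2.84 ± 0.06 (7.15-fold, adjusted p = 1.62e-17), the 3rd largest rise of all coding sequences tested.

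ADE16 (YLR028C, chrXII:199540-201315) had 322 and 292 CPM at 0 h, 284 and 288 at 0.5 h, 285 and 286 at 1 h, 359 and 345 at 1.5 h, then 361 and 369 at 2 h. The 0.5 h and 1 h libraries overlapped and all 4 late libraries lay above all 6 early ones. From 1 h to 2 h ADE16 rose by 0.36 ± 0.06 on the log2 scale (1.28-fold, adjusted p = 1.49e-05), and at 2 h it was 1.19-fold above 0 h (0.25 ± 0.06, adjusted p = 0.000536).

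The ratio of ADE17 to ADE16 per length came to 0.340 and 0.380 at 0 h, 0.273 and 0.280 at 0.5 h, 0.190 and 0.213 at 1 h, 1.09 and 1.14 at 1.5 h, then 1.18 and 1.12 at 2 h. ADE16 transcript was the more abundant in the 6 libraries up to 1 h and ADE17 by a small margin in the 4 later ones. The ratio changed over time (exact permutation p = 0.00212, adjusted p = 0.00317 over 3 ratios), and it was 3.19-fold higher at 2 h than at 0 h (log2 difference 1.67). The coding sequences of ADE16 and ADE17 share 71.2% of their bases, with a longest identical run of 19. No member overlapped another annotated gene.

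**Figure D3:**
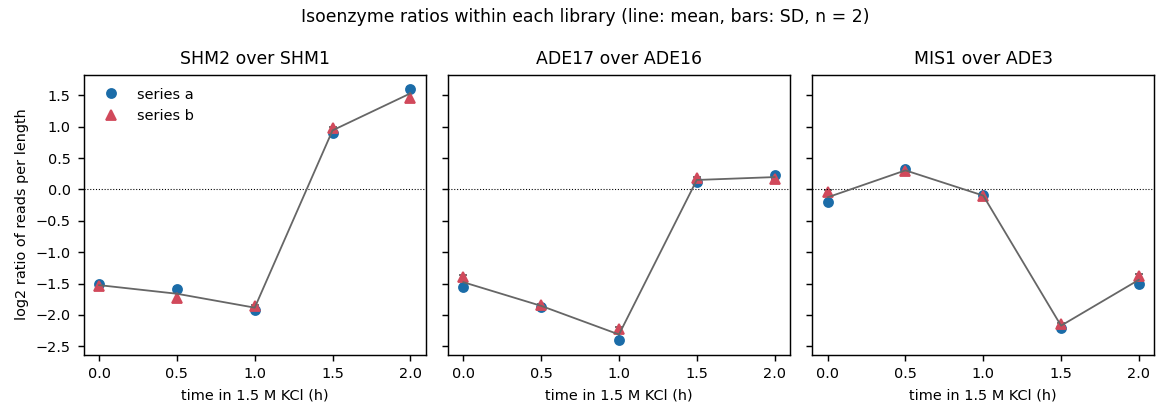
The log2 ratio of reads per length within each library for SHM2 over SHM1, ADE17 over ADE16 and MIS1 over ADE3, against hours in 1.5 M KCl, with circles for series a, triangles for series b, the line through the means and bars of SD (n = 2). The SHM2 and ADE17 ratios cross 0 between 1 h and 1.5 h, and the MIS1 ratio drops to -2.17 at 1.5 h.

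Across the 10 genes, the comparison of 2 h with 1 h called 7 higher (all but LPD1, SHM1 and MIS1) and those 3 lower, where 35.1% of all coding sequences were called higher and 34.0% lower (69.1% in either direction). The median log2 fold change of the members was 1.51, and that of all coding sequences 0.01. Among the 7 members other than GCV1, GCV2 and GCV3, 4 were called higher and 3 lower. The rise of those other 3 genes at 1.5 h against 0 h was known when the genes were grouped. Nothing is therefore read from the count and median of all 10. At 2 h against 0 h, 8 members were called higher and 2 lower, with 37.8% and 37.0% of all coding sequences called (74.9% together), and among the 7 members other than GCV1, GCV2 and GCV3 the count was 5 higher and 2 lower. At 1.5 h against 0 h, 8 members were higher and 2 lower, beside 37.5% and 39.1% of all (76.6% together). GCV1, GCV2 and GCV3 were chosen on that comparison, so its count is a description from which nothing is read.

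Early in the series fewer members were called higher against 0 h, and so were fewer of all coding sequences. Without GCV1, GCV2 and GCV3 the higher calls against 0 h were 4 of 7 at 0.5 h and 5 of 7 at 2 h. At 0.5 h against 0 h, 4 were called higher (LPD1, SHM1, SHM2 and MIS1) and 1 lower (ADE17), beside 26.0% and 27.7% of all coding sequences (53.7% together). Without the 0.5 h library with URA3 reads, 3 of those 5 calls remained, those of SHM1, MIS1 and ADE17. The LPD1 and SHM2 calls were also lost without the 0 h library of series b (adjusted p = 0.261 and 0.106) and with library size alone (0.271 and 0.103), and that of LPD1 without the 0.5 h library of series b (0.0653) and in a fit of the 2 times alone (0.0511). With library size alone 2 members were called higher and 3 lower, which turned the balance of directions. Over all coding sequences the share of higher calls went from 48.5% to 36.6% under that scaling, so this shift was not particular to the members. At 1 h against 0 h, 4 were called higher and 2 lower, beside 28.8% and 28.1% of all (56.9% together), and without GCV1, GCV2 and GCV3 2 were higher and 2 lower. Both shares are near the background. From 0.5 h to 1 h, 4 members were called higher (GCV1, GCV2, GCV3 and LPD1) and 4 lower (SHM2, MTD1, MIS1 and ADE17), beside 32.9% and 32.1% of all (65.0% together). Without GCV1, GCV2 and GCV3 the count was 1 higher and 4 lower. The MTD1 call was lost with library size alone (log2 fold change -0.20, adjusted p = 0.0661) and the LPD1 call in DESeq2 (0.16, adjusted p = 0.0691). The MTD1 change was -0.29 without the 0.5 h library of series b and -0.18 without the 1 h library of series b. Without the 1 h library of series b, 5 members were called.

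From 1 h to 1.5 h 7 members were called higher and 3 lower, beside 34.1% and 34.0% of all coding sequences (68.2% together). Leaving out GCV1, GCV2 and GCV3, which were chosen through the 1.5 h libraries, 4 were higher (SHM2, MTD1, ADE16 and ADE17) and 3 lower (LPD1, SHM1 and MIS1). The LPD1 call was lost without the 1 h library of series b or either 1.5 h library (adjusted p = 0.130, 0.0574 and 0.0535), with upper-quartile factors (0.534) and in DESeq2 (0.126), and with library size alone LPD1 was called higher (0.17 on the log2 scale, adjusted p = 0.00732). From 1.5 h to 2 h 5 were called higher and 1 lower, where 15.5% of all were called higher and 9.46% lower (25.0% together). In that last step GCV1, GCV2, GCV3, SHM2 and MIS1 were higher and SHM1 lower, and LPD1, MTD1, ADE16 and ADE17 were not called. DESeq2 called 3 of the 10 there (GCV1, SHM2 and MIS1) and 767 coding sequences in all, where edgeR called 1485. Without GCV1, GCV2 and GCV3 the edgeR count was 2 higher and 1 lower. The SHM1 call there was lost under 10 of the alternatives tried.

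**Figure D4:**
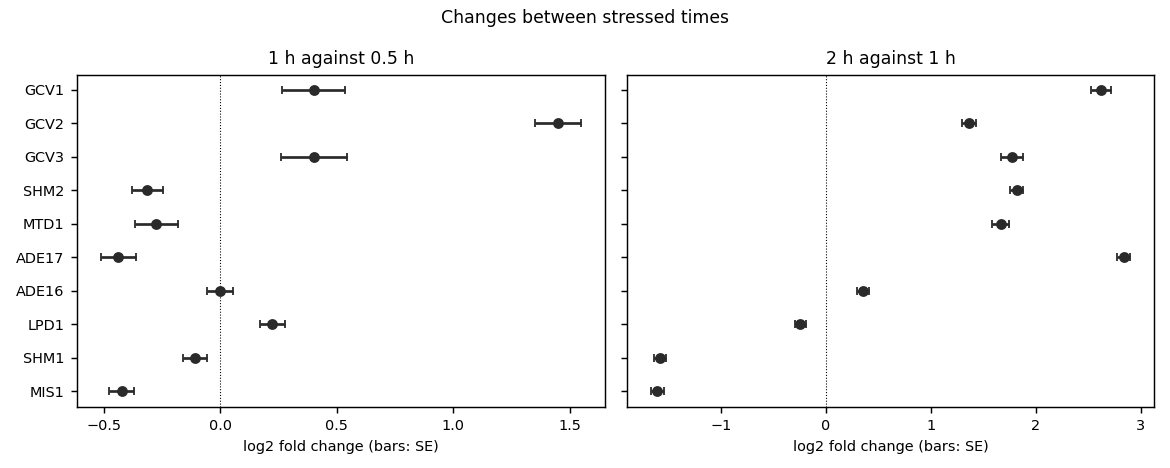
The log2 fold change of each of the 10 genes with its SE, from 0.5 h to 1 h on the left and from 1 h to 2 h on the right, on axes of different range. GCV2 stands at 1.45 on the left, ADE17 and GCV1 stand at 2.84 and 2.62 on the right, and SHM1 and MIS1 lie at -1.58 and -1.61 there.

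The order of the levels per kilobase changed between the ends of the series. At 0 h the order was SHM1 (213 ± 5.17 CPM per kb), LPD1 (192 ± 11.1), ADE16 (173 ± 11.9), MIS1 (132 ± 0.34), SHM2 (74.1 ± 2.84), ADE17 (62.0 ± 0.64), MTD1 (51.4 ± 0.94), GCV3, GCV1 and GCV2. At 2 h it was SHM2 (244 ± 5.34), ADE17 (236 ± 4.79), LPD1 (210.2 ± 4.37), ADE16 (206 ± 3.11), GCV3, MTD1 (121 ± 4.23), GCV1, SHM1 (84.4 ± 3.91), GCV2 and MIS1 (41.5 ± 4.05). Neighbours whose mean ± SD overlapped were LPD1 and ADE16 at 0 h, and at 2 h SHM2 with ADE17, LPD1 with ADE16, ADE16 with GCV3, and MTD1 with GCV1. MIS1 stood above 78.1% of all coding sequences at 0 h and above 35.8% at 2 h, while ADE17 went from above 53.8% to above 89.1%.

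The other genes of the pathway did not move as a block. Of 6 genes of serine and glycine synthesis, 3 were called higher and 1 lower at 2 h against 0 h, with a median log2 fold change of 0.22. Over all coding sequences 37.8% were called higher and 37.0% lower there, so calls in both directions are not particular to these lists. The genes named below from each pathway list had the largest changes among those called in that comparison. Their p-values were under the threshold by that choice, and nothing is read from them. AGX1, which makes glycine from glyoxylate, rose by 1.14 ± 0.12 on the log2 scale (adjusted p = 5.54e-08). SER3, which encodes a phosphoglycerate dehydrogenase of serine synthesis, rose by 0.91 ± 0.08 (adjusted p = 2.79e-09). SER3 and its paralog SER33 share an identical run of 56 coding bases, so their counts are uncertain to that extent. GLY1, the threonine aldolase that makes glycine from threonine, fell by 1.18 ± 0.07 (adjusted p = 1.75e-11), from 431 and 379.8 CPM at 0 h to 168 and 186 at 2 h.

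Of 14 genes of folate synthesis and other folate enzymes, 6 were called higher and 7 lower at 2 h against 0 h (median -0.28). The shares over all coding sequences were 37.8% and 37.0%. With scaling by library size alone 6 were higher and 3 lower. FMT1, the mitochondrial methionyl-tRNA formyltransferase, rose by 1.03 ± 0.18 (adjusted p = 4.63e-05), and ABZ1, which makes a precursor of p-aminobenzoate, by 0.72 ± 0.06 (adjusted p = 3.77e-09). RMA1, a gene with similarity to folylpolyglutamate synthetases, fell by 1.63 ± 0.13 (adjusted p = 5.57e-10).

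Of 12 other genes of purine synthesis as far as AMP and GMP, 3 were called higher and 6 lower at 2 h against 0 h (median -0.28), and 6 and 6 with scaling by library size alone. ADE2, which encodes phosphoribosylaminoimidazole carboxylase, rose by 1.46 ± 0.06 (2.75-fold, adjusted p = 5.17e-14), from 90.8 and 82.9 CPM to 239 and 239.9. The largest fall was that of GUA1, the GMP synthase, by 2.09 ± 0.06 (4.27-fold, adjusted p = 2.73e-17). IMD4, an IMP dehydrogenase, fell by 1.82 ± 0.06 (adjusted p = 1.10e-15). ADE17 and GUA1, which act on either side of IMP, thus moved in opposite directions between 0 h and 2 h.

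Lipoate is the cofactor that Gcv3 carries. Of the 3 genes of lipoate synthesis and attachment, the 1 called at 2 h against 0 h was LIP5, the lipoate synthase, which was lower (-0.32 ± 0.10, adjusted p = 0.00777), a call lost with scaling by library size alone (-0.04, adjusted p = 0.757). Among 7 other subunits of the complexes that share LPD1, 4 were called higher and 2 lower, beside 37.8% and 37.0% of all coding sequences. With library size alone 5 of the 7 were called and all were higher, where 68.2% of the calls over all coding sequences were higher. PDA1, the E1 alpha subunit of pyruvate dehydrogenase, rose by 0.43 ± 0.05 (adjusted p = 7.95e-07), and YMR31, a subunit of 2-oxoglutarate dehydrogenase also named KGD4, rose by 0.79 ± 0.14 (adjusted p = 4.81e-05). PDX1, the E3-binding protein that holds Lpd1 in pyruvate dehydrogenase, was lower by 0.32 on the log2 scale (-0.32 ± 0.08, adjusted p = 0.00118) and was not called with library size alone (-0.04, adjusted p = 0.674).

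**Figure D5:**
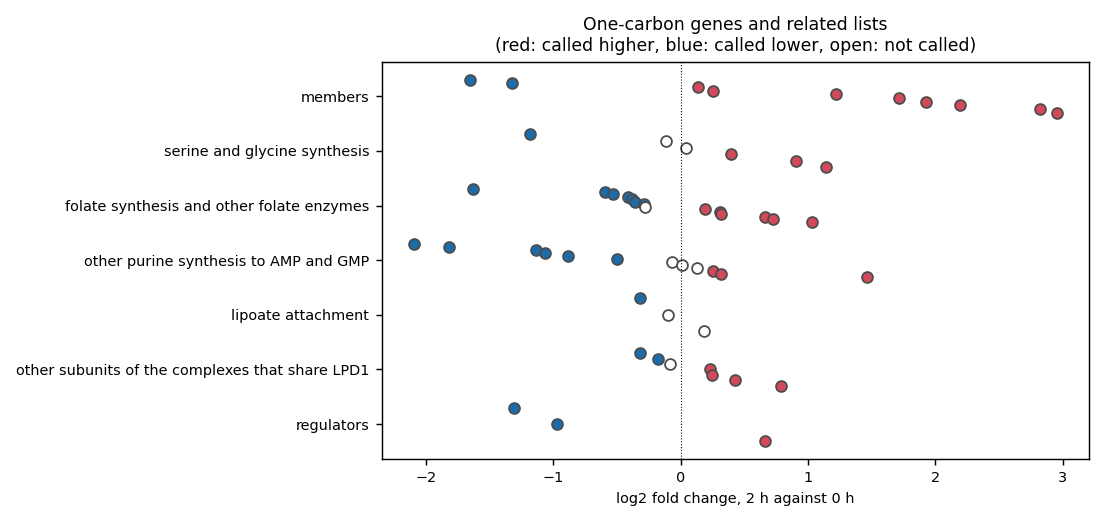
The log2 fold change at 2 h against 0 h of the 10 genes and of each gene in 6 related lists, with filled points for genes called by edgeR and open points for genes not called. The 10 genes span -1.65 to 2.96, and each of the lists other than lipoate synthesis and attachment holds genes called in both directions.

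The transcripts of the factors known to act on these genes did not rise with them as a group. GCN4 had 1561 and 1545 CPM at 0 h, 748 and 735 at 1 h, then 626 and 629 at 2 h, a fall of 1.31 ± 0.05 on the log2 scale from 0 h to 2 h (2.47-fold, adjusted p = 1.11e-14). Gcn4 protein is known to be controlled mainly through translation, which was not measured. BAS1 had 89.7 and 104 CPM at 0 h, 126 and 120.2 at 0.5 h, 38.5 and 36.9 at 1.5 h, then 52.0 and 47.8 at 2 h, and it fell by 0.97 ± 0.09 from 0 h to 2 h (adjusted p = 4.63e-09). PHO2 rose by 0.66 ± 0.09 from 0 h to 2 h (adjusted p = 8.15e-07), and it was already at 85.2 and 88.5 CPM at 1 h, against 46.2 and 55.1 at 0 h. These 3 calls kept their direction under the other scalings.

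Changes of genes with TGACTC in the upstream window are given as a description. Whether Bas1 or Gcn4 acted on any of them was not tested. Of the 421 tested coding sequences with these letters, 36.8% were called higher and 35.9% lower at 2 h against 0 h, with a median log2 fold change of 0.02. Over all coding sequences the shares were 37.8% and 37.0% and the median was 0.01. Among the 45 related genes listed above, 17 held the letters, of which 7 were higher, 4 lower and 6 not called (median 0.04), and the other 28 had 10 higher, 15 lower and 3 not called (median -0.23). ADE2 and GUA1 both held TGACTC and moved in opposite directions. Of the 6 members with the letters, LPD1 was the one with a log2 fold change under 1 at 2 h against 0 h. GCV1, GCV2 and GCV3 are among those 6 and were grouped with their rise known, so nothing is read from this.

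The coding sequences whose log2 CPM over the 10 libraries was most like that of a member are given as a description, since the libraries at a time share their treatment. For GCV2 they were RSC30, SNO4, PUT2, AMS1 and SIP4 (Pearson r of 0.998 to 0.996). PUT2 encodes a mitochondrial dehydrogenase of proline use, AMS1 a vacuolar mannosidase and SIP4 a transcription factor of gluconeogenic genes. SHM2 was closest to SPO71, VPS16, PRE9, PRE8 and BUB1 (0.992 to 0.982), of which PRE9 and PRE8 encode proteasome core subunits. SHM1 was closest to CCW12, a cell wall protein, PHO3, an acid phosphatase, RPL15B, RPL15A and TEF4 (0.994 to 0.992). RPL15A and RPL15B are near-identical copies, so reads may be split between them. Among the members themselves, MIS1 ranked 219th in likeness to SHM1 (0.969) and MTD1 15th in likeness to SHM2 (0.973), while GCV3 and GCV1 ranked 501st and 717th in likeness to GCV2 (0.939 and 0.918).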

How the data were processed

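RNA-seq libraries of BY4741 at 5 times in KCl were analysed from the authors' deposited table of estimated counts per coding sequence and library. Per the file headers these are raw read counts, but 2.77% were not whole and ended in 0.5. Among the 100 member counts 6 did so, all of them counts of SHM1. Such counts were rounded, with 0.5 going upward, before testing. Build R64 is named in the submitters' processing notes. The aligner, counting tool and strand setting are not stated in the sources used here. The table had 65885 lines, of which 1302 gene and mRNA lines and 4693 identical repeats were left out, and 5975 of 5989 coding sequences matched R64 by position.

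All libraries were fitted together with edgeR 4.0.16 in R 4.3.3 (glmQLFit and glmQLFTest, time group as the only term). The filterByExpr filter left out 46 coding sequences, TMM factors were 0.876 to 1.16, and the biological coefficient of variation was 4.05%. The SE of a fold change is its absolute log2 value over the square root of the F statistic. Tests are two-sided. Ratios use rounded counts plus 0.5, divided by coding length. Likeness used log2 CPM with a prior count of 0.5 in coding sequences of at least 10 CPM at some time. DESeq2 1.42.0 was an alternative. On counts simulated for 2 h against 0 h with 5943 genes, 58% of genes changed 1.25-fold, 92% at 1.5-fold and 100% at 2-fold and 4-fold were recovered. Every gene was drawn at the same variation of 4.05%, and only 50 genes of over 10 CPM were changed at each fold. In the data most genes changed, so these rates may be too high there and do not cover errors of scaling. Figures and ratios used Python 3.11.15, numpy 2.4.6, scipy 1.17.1 and matplotlib 3.10.9.

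The members and lists were chosen with earlier results of these data known. All members were named, with up to 3 genes of each related list, those of largest change at 2 h against 0 h among genes called there, and ADE3, BAS1, PHO2 and GCN4. The upstream window of 1 member is not reported here. The replicates are called independent experiments in the design text, which does not say how cultures were started. Letters a and b mark the time series: the differences between a and b at any pair of times had a Pearson correlation of -0.10 to 0.28, across 5698 coding sequences, which are not independent.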

Additional observations from a re-analysis of the deposited data

How the results depend on the processing

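Over 1360 recomputed log2 fold changes of members, 1285 were counted as kept in direction, size or call, 39 lost the call and 7 gained one. A turn of sign in a member called in neither fit was counted as kept. A further 27 moved with no test, and 2 turned sign with a call in either fit. Both turns were of LPD1 with scaling by library size alone, at 1.5 h against 1 h (0.17) and at 2 h against 1 h (0.046). That scaling moved the median of all genes by 0.31 at 1.5 h and 0.29 at 2 h against 0 h, and the share of higher calls from 48.9% to 68.4% and from 50.6% to 68.2%, and from 48.5% to 36.6% at 0.5 h. The number of members called at 0.5 h against 0 h ranged from 3 to 5 when 1 library was left out, 3 without the 0.5 h library of series a, and at 1 h against 0.5 h from 5 to 8, 5 without the 1 h library of series b. With 1 library left, a time was assumed to vary like the others. DESeq2 called 3 members at 2 h against 1.5 h, where edgeR called 6. Over all coding sequences DESeq2 called 767 there and edgeR 1485, so fewer calls were not particular to the members. With the series as a replicate block the members called numbered 5, 6, 10 and 10 at the 4 times against 0 h, as without it, no call of a member changed, and the SHM2 to SHM1 ratio rose by 3.05. Leaving out 1 library gave 2.99 to 3.12 for that ratio, 1.59 to 1.76 for ADE17 to ADE16, and -1.39 to -1.24 for MIS1 to ADE3. The related lists were recounted under other scalings after the data were seen. GCV1, GCV2 and GCV3 had 76 to 179 reads in the libraries of 0 and 0.5 h, which limits the precision of their values there.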
